A study of Homo sapiens with 6 samples.

Results

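The genes described here are 39 genes of mitosis and of the spindle checkpoint, listed by function, with CENPE kept as a kinetochore gene and the other kinesin motors left out, among 28395 Entrez gene IDs in the count table. All 39 were found by symbol, and all 39 were among the 13950 genes that passed the filter on low counts. The control was the parental line MDA-MB-468, an established cell line from a human triple-negative breast cancer, and the resistant line was its derivative MDA-MB-468-PR. The derivative had been made by culture in 3 to 4.5 nM paclitaxel over 2 months, and all 6 samples are labelled as untreated. There were 3 libraries of each line, and replicate 1 of both lines carries a 2020 batch label and the other 4 libraries a 2021 label. All resistant libraries came from this one derivative, so the effect of the drug cannot be told apart from other changes that arose as the derivative was cultured. Messenger RNA was captured with exome probes, and the libraries held 37889818 to 93680129 counts. Levels are given in CPM, the usual scale of counts relative to the library's total, adjusted between libraries by the TMM method, and a difference is the fitted log2 difference of resistant minus control unless stated. A gene was called at an adjusted p under 0.05 over all tested genes.

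Mitosis is driven by cyclin-dependent kinase 1 bound to cyclins A and B, with the Polo and Aurora kinases. The spindle checkpoint holds cells in metaphase until every kinetochore is attached to microtubules, by keeping the activator CDC20 from switching on the ubiquitin ligase APC/C, which then destroys cyclin B and securin. Paclitaxel stabilises microtubules, and dividing cells exposed to it are known to be held at this checkpoint. The messenger RNAs of most of these genes are made in G2 and mitosis, so their level in a culture moves with the share of cells in those phases. In bulk RNA a smaller share of such cells and less RNA per cell cannot be told apart.

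The libraries carried markers of the labelled cells. The 8 epithelial and basal markers summed to 9370 to 11600 CPM in control and 11600 to 14400 CPM in resistant libraries with none under 1 CPM. EGFR, the most abundant of them, was at 3775 CPM on average in control and 5964 CPM in resistant libraries, and the other 7 differed by -0.15 to 0.13. The oestrogen receptor gene ESR1 was at 2.12 and 1.64 CPM on average in control and resistant libraries, and the progesterone receptor gene PGR had no count in any library. ERBB2, also listed among receptors low in triple-negative lines, was higher, at 117 and 105.5 CPM on average in control and resistant libraries. Of 7 leukocyte markers 4, and of 7 fibroblast markers 5, stayed under 1 CPM in every library. The summed leukocyte markers were at 9.96 to 21.5 CPM in control and 13.6 to 20.7 CPM in resistant libraries, and the fibroblast markers at 24.9 to 31 and 23.8 to 28.6 CPM, most of it COL1A1. Endothelial markers were at 9.28 to 25.7 and 15.6 to 66 CPM, most of it KDR, and 2 of the 5 stayed under 1 CPM in every library.

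Many genes of this group share short promoter elements through which their transcription is tied to G2 and mitosis. The cell cycle genes homology region (CHR), TTTGAA, is known to be bound by the DREAM and MuvB complexes, and CCAAT boxes by the factor NF-Y. RefSeq windows (GRCh38.p14) from 250 bases before to 50 after the gene start were at hand for 32 of the 39 genes, in 43 windows. AURKA, BIRC5, BUB3, TPX2, TTK, UBE2C and KNL1 had no entry. On either strand TTTGAA was found in 23 of the 32 genes (71.9%), against 18.2% of 27305 genes with a window, and CCAAT in 25 (78.1%), against 39.7%. Both were present in 18 genes (56.2%), against 7.26% of all genes, and no TTTGAA overlapped a CCAAT in these windows. The 27305 genes were not limited to coding genes or to tested genes, whereas all 32 are both, so these shares compare unlike sets. Within the 50 bases before the start, TTTGAA stood in 11 of the 32 genes, against 2.88% of all genes. By window rather than by gene, TTTGAA was in 62.8% and CCAAT in 72.1% of the 43, against 15.2% and 34.6% of 35116 windows. A match to these letters is a description of the sequence, not a measured binding site. Only these exact letters were searched, so a gene without a match may still hold another form of the element. The 120 bases before the start are printed here for CDC20, ESPL1, INCENP, ZWINT, CENPA and MAD1L1, the 6 genes with a window among the 7 called between the batches, for CCNA2, the one gene called between the lines, and for CCNB2, whose printed stretch holds 3 of the 4 CCAAT boxes of its window. Sequences run 5′ to 3′ on the gene's strand, and capitals mark TTTGAA or its complement TTCAAA, and CCAAT or its complement ATTGG.
CDC20: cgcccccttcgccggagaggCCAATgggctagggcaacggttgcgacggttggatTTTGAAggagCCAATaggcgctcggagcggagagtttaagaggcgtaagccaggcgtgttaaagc
ESPL1: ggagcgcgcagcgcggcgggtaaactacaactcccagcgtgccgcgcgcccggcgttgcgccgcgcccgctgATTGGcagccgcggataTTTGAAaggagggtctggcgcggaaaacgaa
INCENP: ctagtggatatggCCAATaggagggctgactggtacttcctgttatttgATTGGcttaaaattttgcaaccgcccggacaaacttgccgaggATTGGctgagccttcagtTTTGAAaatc
ZWINT: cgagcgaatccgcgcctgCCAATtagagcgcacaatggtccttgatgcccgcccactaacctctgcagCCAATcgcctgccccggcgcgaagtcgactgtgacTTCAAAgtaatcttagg
CENPA: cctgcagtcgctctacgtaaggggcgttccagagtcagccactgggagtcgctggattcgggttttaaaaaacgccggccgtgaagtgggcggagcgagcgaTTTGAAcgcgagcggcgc
MAD1L1: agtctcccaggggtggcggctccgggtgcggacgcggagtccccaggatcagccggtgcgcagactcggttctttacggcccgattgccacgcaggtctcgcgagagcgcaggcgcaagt
CCNA2: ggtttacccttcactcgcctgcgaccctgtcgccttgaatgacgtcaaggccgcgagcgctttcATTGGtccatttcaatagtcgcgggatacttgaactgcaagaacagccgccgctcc
CCNB2: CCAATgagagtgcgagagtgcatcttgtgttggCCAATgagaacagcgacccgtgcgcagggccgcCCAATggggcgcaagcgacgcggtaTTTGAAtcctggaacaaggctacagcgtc
These stretches lie at chr1:43358861-43358980 (CDC20, plus strand), chr12:53268179-53268298 (ESPL1, plus), chr11:62123891-62124010 (INCENP, plus), chr10:56361274-56361393 (ZWINT, minus), chr2:26785936-26786055 (CENPA, plus), chr7:2232946-2233065 (MAD1L1, minus), chr4:121823884-121824003 (CCNA2, minus) and chr15:59105026-59105145 (CCNB2, plus). In ESPL1 the TTTGAA began 31 bases and in CCNB2 29 bases before the start, in ZWINT its complement began 17 bases before, and in CDC20 it lay farther up, at 65 bases. CCNA2 held an ATTGG at 56 bases and no TTTGAA in the printed stretch, and the window of MAD1L1 held neither motif.

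Mitosis and checkpoint genes differed little between the resistant and the control line. One of the 39 genes, CCNA2, was called lower in the resistant line and none higher, whereas 11.7% of all tested genes were called, 6.23% higher and 5.48% lower (edgeR quasi-likelihood test, batch as a term). At an unadjusted p under 0.05 there were 9 of the 39 genes, against 26.4% of all genes, and 8 of the 39 were lower, against 12.7% of all genes. DESeq2 called 3 (BIRC5, CCNA2 and MAD2L1, all lower, with 15.8% of all genes called), and limma voom called 0, with 8 at an unadjusted p under 0.05 and 11.3% of all genes called. Fitted differences ran from -0.44 for BIRC5 to 0.35 for CENPE. They were small but mostly on one side: 36 of 39 were below 0, with a median of -0.19, against 50.6% of all tested genes and a median of -0.004. All 39 genes were read in the same 6 libraries, so the 36 are not independent observations. On the linear scale the median corresponds to a level 1.14-fold higher in the control line.

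All 3 resistant libraries were below all 3 control libraries for 10 genes, against 10.2% of all tested genes, and above them for 0 genes, against 10.7%. The difference was below 0 in both the 2020 and the 2021 libraries for 29 of the 39 genes, against 35.2% of all genes. The median was -0.15 in each of 2020 (-0.146) and 2021 (-0.154). The 95% interval of the difference lay inside a 1.5-fold change in either direction for 31 genes and inside a 2-fold change for 38, all but SPC25. The summed level of the 39 genes was 7488, 8067 and 7470 CPM in control replicates 1 to 3 and 6593, 6350 and 7705 CPM in resistant replicates 1 to 3. Resistant replicate 3 thus lay among the control libraries. Without it the median difference was -0.24, and without resistant replicate 2, the library with the lowest sum, it was -0.10.

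**Figure D1:**
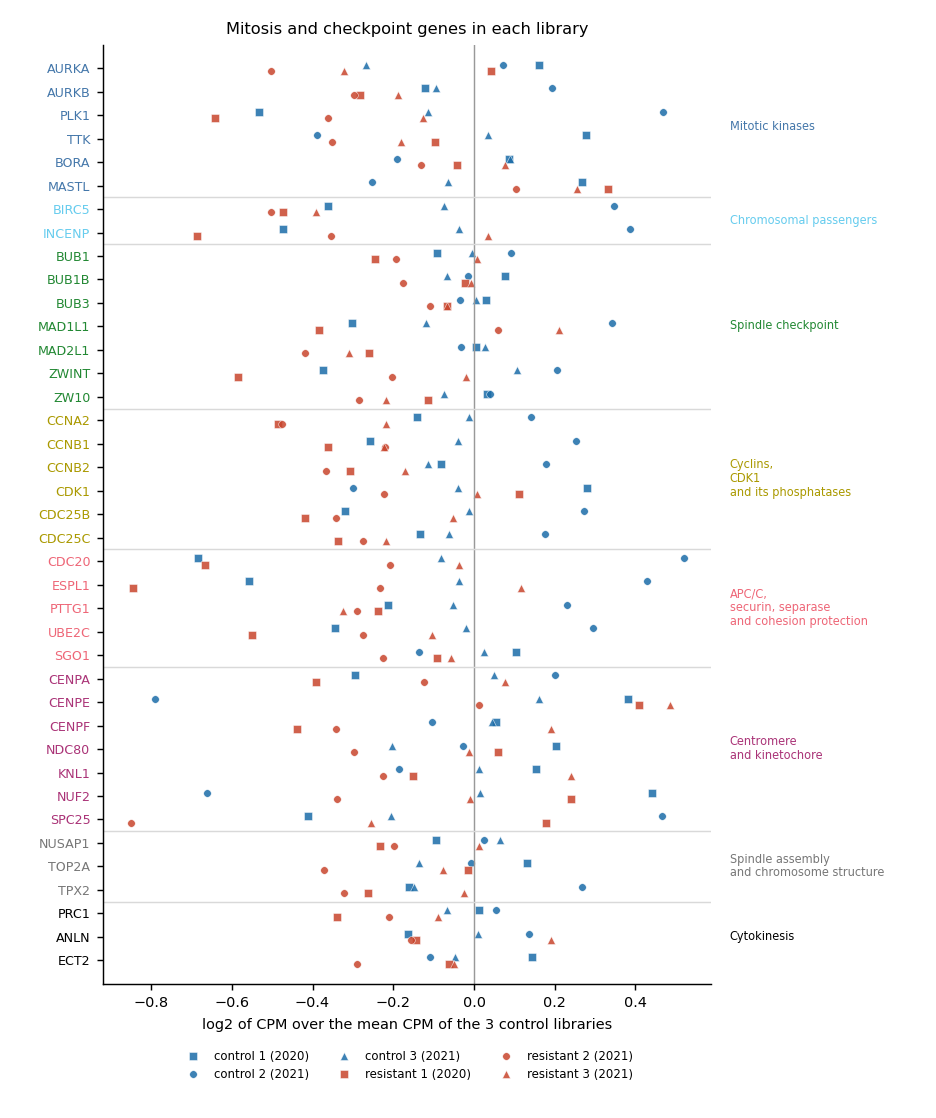
Level of each of the 39 genes in each library, as the log2 of its CPM over the mean CPM of the 3 control libraries (x axis), in blue for control and red for resistant libraries, with a marker shape per replicate. Genes are grouped by role; red points lie mostly left of 0, and control replicate 2 (blue circles) is far right for CDC20, PLK1 and ESPL1 and far left for CENPE and NUF2.

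Cyclins, CDK1 and its phosphatases held the one call. CCNA2, which encodes cyclin A2 of S phase and early mitosis, was at 113, 137 and 123 CPM in control and 88.7, 89.2 and 107 CPM in resistant replicates 1 to 3. Every resistant library was below every control library, and CCNA2 fell 1.31-fold (log2 difference -0.39 ± 0.11 SE, adjusted p = 0.0497). Within the batches the difference was -0.34 in 2020 and -0.41 in 2021. Its adjusted p stood just under the threshold and ran from 0.0107 to 0.234 over 18 alternatives, with a log2 difference of -0.47 to -0.31. The call was lost in 12 of the alternatives. It was kept in the others, among them DESeq2, no filter, offsets for coding GC content (0.0406) and the fit without control replicate 3 (0.0392). The adjusted p was 0.149 without control replicate 1, 0.0726 without control replicate 2, 0.156 without resistant replicate 1, 0.234 without resistant replicate 2, 0.0891 without resistant replicate 3, and 0.077 where the replicate number replaced the batch as a block. Without replicate 1 of either line, the batch term takes up the remaining 2020 library. Those fits then rest on the 2021 libraries and are not separate checks.

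The mitotic cyclins and the phosphatases that activate CDK1 did not pass. CCNB1, cyclin B1, was at 226, 322 and 263 CPM in control and 210, 232 and 232 CPM in resistant libraries, a difference of -0.26 ± 0.12 SE (adjusted p = 0.208), and the groups overlapped. CCNB2, cyclin B2, was at 120, 144 and 117 against 103, 98.5 and 113 CPM, without overlap (-0.28, adjusted p = 0.16). CDK1 itself was at 242, 162 and 194 CPM against 215, 170 and 200 CPM, and its difference of -0.02 had an interval from -0.30 to 0.26. CDC25C, at 18.7, 23.2 and 19.7 against 16.2, 17.0 and 17.6 CPM, did not overlap between the lines (-0.27, adjusted p = 0.158). CDC25B, the more abundant phosphatase, was at 177, 266 and 219 against 165, 174 and 213 CPM (-0.25, adjusted p = 0.26).

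None of the 7 spindle checkpoint genes was called, and all 7 fitted differences were below 0 with a median of -0.14. At an unadjusted p under 0.05 there were 2, MAD2L1 and ZWINT (edgeR), against 26.4% of all tested genes. MAD2L1 encodes MAD2, which binds CDC20 at unattached kinetochores. It was at 50.9, 49.6 and 51.7 CPM in control and 42.4, 37.9 and 40.9 CPM in resistant libraries, so the lines did not overlap and the libraries within each line lay close together. Its difference was -0.33 ± 0.09 SE (adjusted p = 0.0513), and it was called without control replicate 2 (0.0427), with DESeq2 (0.0147) and with offsets for coding GC content (0.0262), within a range of 0.0147 to 0.251 over the 18 alternatives. BUB3, which recruits the BUB kinases to kinetochores, also separated the lines but by little, at 148, 142 and 146 against 139, 135 and 138 CPM (-0.08, interval -0.29 to 0.13).

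ZW10, of the complex that brings dynein to kinetochores, was at 124, 125 and 115 against 112, 99.7 and 104 CPM (-0.21, adjusted p = 0.203). ZWINT, which links that complex to KNL1, was at 71.2, 106 and 99.1 against 61.5, 80.1 and 90.9 CPM, with overlap between the lines (-0.25, adjusted p = 0.135). The kinases BUB1 and BUB1B (BUBR1) and the MAD2 partner MAD1L1 differed by -0.14, -0.07 and -0.02, with intervals from -0.38 to 0.10, -0.29 to 0.16 and -0.31 to 0.27. BUB1B shares its locus with the read-through gene BUB1B-PAK6, and reads may be split between them.

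None of the 6 mitotic kinases was called, and 2, AURKB and MASTL, had an unadjusted p under 0.05 (edgeR), against 26.4% of all tested genes. PLK1, which acts at centrosomes, kinetochores and the midzone, was at 135, 270 and 181 CPM in control and 125, 152 and 179 CPM in resistant libraries (-0.33, adjusted p = 0.24). Control replicate 2 stood far above the other 5 libraries. AURKA, the centrosome kinase, was at 139, 131 and 104 against 128, 88.0 and 99.8 CPM (-0.25, adjusted p = 0.225). BORA, which helps AURKA activate PLK1, was at 20.4 to 24.7 CPM in control and 21.2 to 24.5 CPM in resistant libraries. TTK (MPS1), which starts checkpoint signalling, was at 276, 174 and 233 against 213, 178 and 201 CPM (-0.19, interval -0.51 to 0.12). MASTL, the Greatwall kinase that restrains the PP2A-B55 phosphatase, was one of 3 genes with a fitted difference above 0. It was at 71.8, 50.1 and 57.1 CPM in control and 75.1, 64.1 and 71.2 CPM in resistant libraries, with overlap (0.25 ± 0.11 SE, adjusted p = 0.18). Over the 6 kinases, AURKB included, the median difference was -0.22.

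The chromosomal passenger complex holds AURKB with INCENP, its scaffold, and BIRC5 (survivin), which brings it to centromeres. BIRC5 had the lowest fitted difference of the 39 genes. It was at 48.0, 78.4 and 58.5 CPM in control and 44.4, 43.5 and 46.99 CPM in resistant libraries, so the lines did not overlap but the gap between them was narrow (-0.44 ± 0.14 SE, adjusted p = 0.0903). The log2 difference was -0.11 in 2020 and -0.58 in 2021. BIRC5 was called when control replicate 3 was left out (adjusted p = 0.0319) and by DESeq2 (0.0498), within a range of 0.0219 to 0.315 over the 18 alternatives. AURKB was at 50.7, 63.1 and 51.6 against 45.3, 44.8 and 48.4 CPM, without overlap (-0.25, adjusted p = 0.174), and INCENP at 121, 220 and 164 against 105, 132 and 173 CPM, with overlap (-0.29, adjusted p = 0.244).

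None of the 5 genes of anaphase onset and cohesion protection was called, and all 5 differences were below 0, with a median of -0.27. UBE2C alone had an unadjusted p under 0.05 (edgeR), against 26.4% of all tested genes. CDC20, the APC/C activator that the checkpoint restrains, was at 248, 571 and 377 CPM in control and 251, 345 and 388 CPM in resistant libraries (-0.24, interval -0.63 to 0.15). ESPL1 encodes separase, which cuts cohesin, and was at 67.7, 134 and 97.3 against 55.5, 84.8 and 108 CPM (-0.27, adjusted p = 0.275). In both genes the 2020 libraries were the lowest of their line. PTTG1, securin, the inhibitor of separase, was at 129, 176 and 145 against 127, 123 and 120 CPM without overlap (-0.28, adjusted p = 0.191), and may share reads with its near-identical relative PTTG2. UBE2C, the APC/C ubiquitin-conjugating enzyme, was at 87.1, 136 and 109 against 75.5, 91.5 and 103 CPM (-0.29, adjusted p = 0.145). SGO1, the protector of centromeric cohesion, was at 28.3 to 33.4 against 26.7 to 30.0 CPM (-0.12).

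The 7 centromere and kinetochore genes had a median difference of -0.07, with 5 below 0, and none was called or had an unadjusted p under 0.05 (edgeR). CENPE, a kinesin that carries chromosomes to the spindle equator, had the highest fitted difference of all 39 genes, at 260, 115 and 223 CPM in control and 265, 201 and 279 CPM in resistant libraries. Its interval ran from -0.29 to 0.98, and control replicate 2 was far below the other 5 libraries. CENPF was one of the 2 most abundant genes of the list by CPM, at 1060, 950 and 1053 against 753, 805 and 1166 CPM, with the highest and the lowest library both in the resistant line (-0.18). NDC80 and NUF2, which form the microtubule-binding arm of the NDC80 complex, differed by -0.07 and 0.01, with intervals from -0.34 to 0.20 and -0.41 to 0.44. KNL1, the platform for BUB1, differed by -0.03 and CENPA, the centromeric histone, by -0.13. SPC25, a subunit of the same complex as NDC80, had only 18, 46 and 35 counts in control and 25, 22 and 48 counts in resistant libraries. Its gene overlaps NOSTRIN in RefSeq, and the part of that overlap in the low count was not tested.

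None of the 3 spindle assembly and chromosome structure genes and of the 3 cytokinesis genes was called or had an unadjusted p under 0.05 (edgeR). TOP2A, the topoisomerase that untangles sister chromosomes, was at 1035, 941 and 861 against 935, 730 and 896 CPM (-0.15, interval -0.44 to 0.15). TPX2, which activates AURKA on the spindle, and NUSAP1, which bundles microtubules, differed by -0.19 and -0.14. PRC1, which crosslinks the midzone, was at 181, 186 and 171 against 142, 155 and 169 CPM, without overlap (-0.21, adjusted p = 0.238). The contractile ring protein ANLN and the RhoA activator ECT2 differed by -0.03 and -0.13, with intervals from -0.32 to 0.27 and -0.38 to 0.13.

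**Figure D2:**
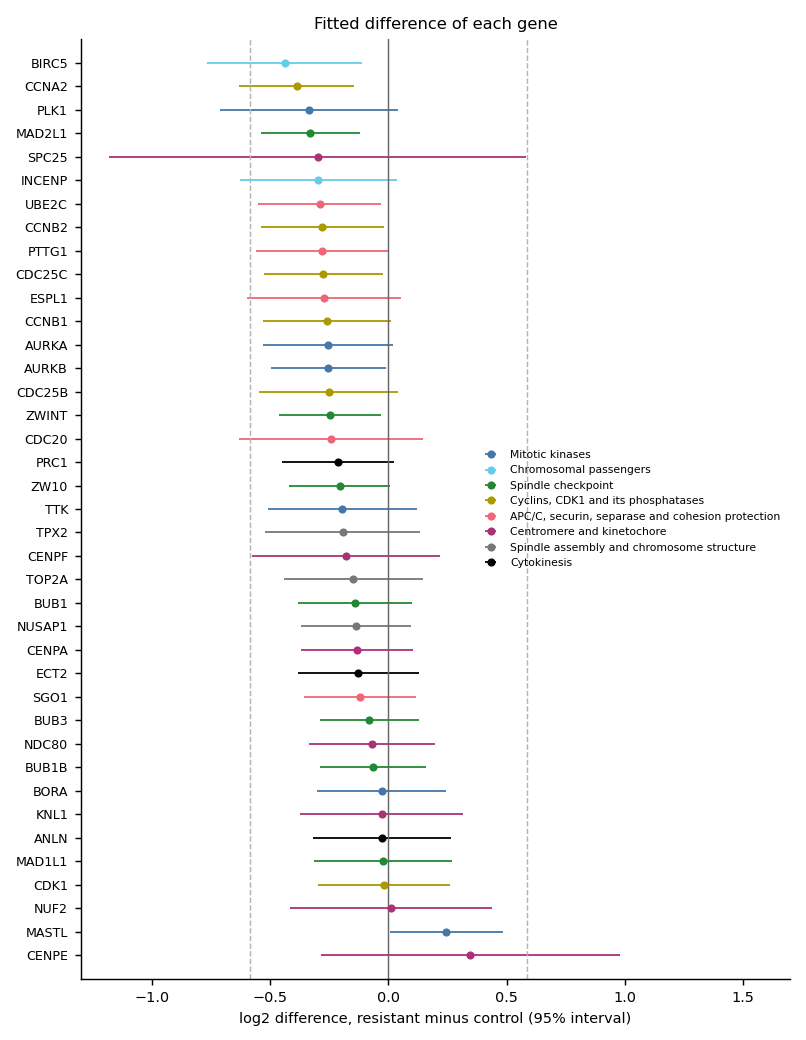
Fitted log2 difference of resistant minus control for each of the 39 genes (points) with its 95% interval (bars), coloured by role and sorted; dashed lines mark a 1.5-fold change in either direction. Points run from -0.44 (BIRC5) to 0.35 (CENPE), and 36 of 39 lie left of 0.

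Levels between genes are compared on a scale per coding length, as TPM, a share of all coding transcripts. Capture by exome probes may differ between genes, and all counts of a gene were divided by its longest coding length. The order given here therefore need not be that of the transcripts in the cells. In control libraries CDC20 had the highest mean at 338 ± 132 TPM (SD, n = 3), followed by PTTG1 at 314 ± 45.5, CDK1 at 284 ± 58.5, CCNB1 at 264 ± 44.0, UBE2C at 262 ± 54.7 and TOP2A at 261 ± 20.03 TPM. These 6 means lay within one another's spread, so their order is not resolved. The checkpoint genes followed in the order BUB3 (188 ± 8.07), ZWINT (141 ± 28.7), MAD2L1 (105 ± 5.17), BUB1 (96.1 ± 5.82), ZW10 (66.01 ± 1.13), BUB1B (64.4 ± 2.72) and MAD1L1 (34.3 ± 7.54 TPM). Neither MAD2L1 and BUB1 nor ZW10 and BUB1B differed beyond their spread. The lowest were ESPL1 (19.9 ± 6.37), CDC25C (18.4 ± 1.84), BORA (15.6 ± 2.02) and SPC25 (1.12 ± 0.353 TPM), of which only SPC25 stood apart from the others beyond the spread. The resistant line showed the same span, from 307 ± 85.2 TPM for CDC20 to 1.021 ± 0.298 TPM for SPC25.

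**Figure D3:**
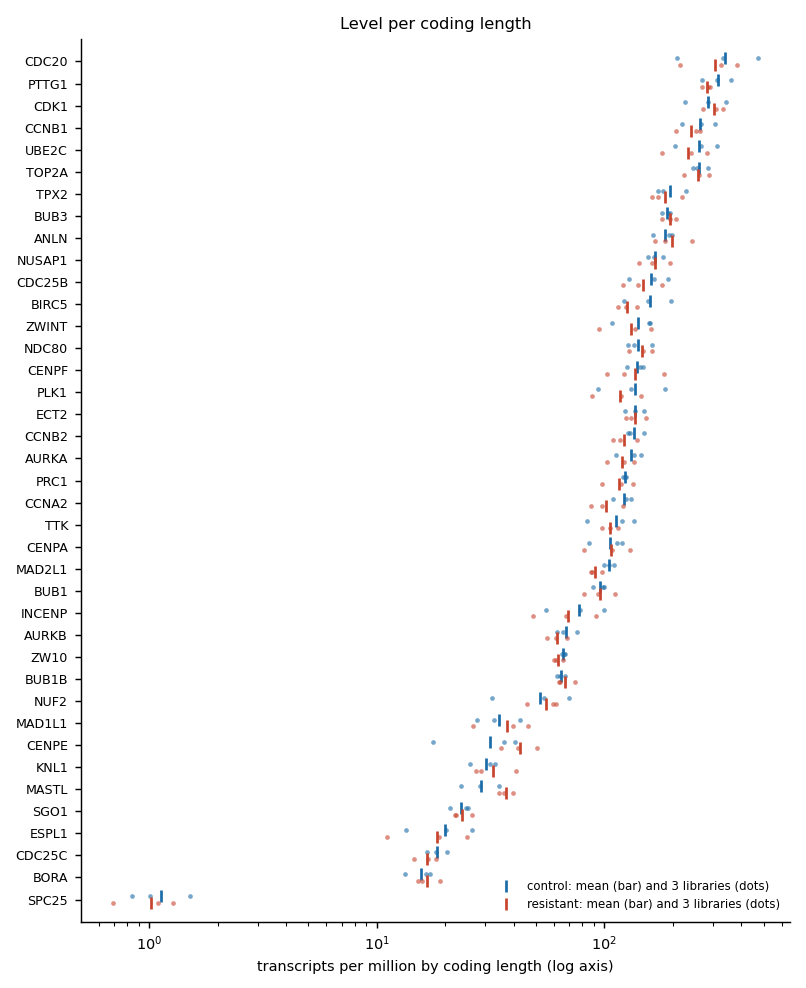
Level of each gene per coding length in TPM (log axis), with the mean (bar) and the 3 libraries (dots) of control (blue) and resistant (red), sorted by the control mean. CDC20 is highest at 338 TPM in control libraries and SPC25 lowest at 1.12 TPM.

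More of these genes were called between the batch labels than between the lines, as over all tested genes (22.9% and 11.7%). Between the 2021 and the 2020 libraries 7 of the 39 genes were called, all higher in 2021, against 22.9% of all tested genes called, 11.5% higher and 11.4% lower. ESPL1 was 1.72-fold higher in 2021 (log2 difference 0.79 ± 0.16 SE, adjusted p = 0.0127), CDC20 1.67-fold (adjusted p = 0.0265), INCENP 1.52-fold (0.0298), ZWINT 1.42-fold (0.0134), MAD1L1 1.39-fold (0.0401), UBE2C 1.34-fold (0.0386) and CENPA 1.32-fold (0.0366). PLK1 was close behind with 1.48-fold and an adjusted p of 0.0517. On the other side, NUF2 was at 72.1 CPM on average in 2020 and 48.7 CPM in 2021 (-0.57, adjusted p = 0.0678), and AURKA at 134 and 106 CPM (-0.35, adjusted p = 0.0757). The count of 7 rests on few libraries: it was 4 without resistant replicate 2 and 1 without resistant replicate 3. The highest count with one library left out was 10. Without replicate 1 of either line only 1 library of 2020 is left, so those counts are not given here. DESeq2 called 11, 8 higher and 3 lower, with 29.9% of all genes called.

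The size of the batch difference followed the base composition of the genes. Across the 39 genes, which share the same libraries, it correlated with the GC content of the coding sequence at r = 0.84 (Spearman's rho 0.83), against r = 0.44 (rho 0.57) over 13264 tested genes with a value. Among the 13 genes of highest GC content (47.4% to 61.7%) the batch difference was above 0 in 12, with a median of 0.43, and among the 13 of lowest GC content (35.3% to 42.2%) it was above 0 in 2, with a median of -0.20. CENPE and NUF2, at 35.3% and 37.2% GC, lay at the low end, and ESPL1, CDC20 and INCENP, at 57.7%, 57.5% and 61.5%, at the high end. With offsets that remove each library's trend on GC content, an alternative chosen after the data were seen, 2 of the 39 genes were called between the batches, ESPL1 and ZWINT, with 10.2% of all genes called.

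The 2 control libraries of 2021 differed from each other along the same axis. Control replicate 2 minus control replicate 3 correlated with coding GC content at r = 0.63 over the 39 genes, against r = 0.29 over all tested genes. For resistant replicate 2 minus resistant replicate 3 these were r = 0.24 and r = 0.11. Control replicate 2 was the highest of all 6 libraries for 21 genes and the lowest for 6. For the difference between the lines the relation with GC content was weaker and of the opposite sign over the 39 genes (r = -0.44, rho -0.46) and near 0 over all genes (r = -0.005). With the log of coding length the difference between the lines correlated at r = 0.467 over the 39 genes and r = 0.146 over all genes. With the GC offsets the median difference of the 39 genes was -0.20, 36 were below 0, and CCNA2 and MAD2L1 were called lower (adjusted p = 0.0406 and 0.0262), with 15.2% of all genes called.

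**Figure D4:**
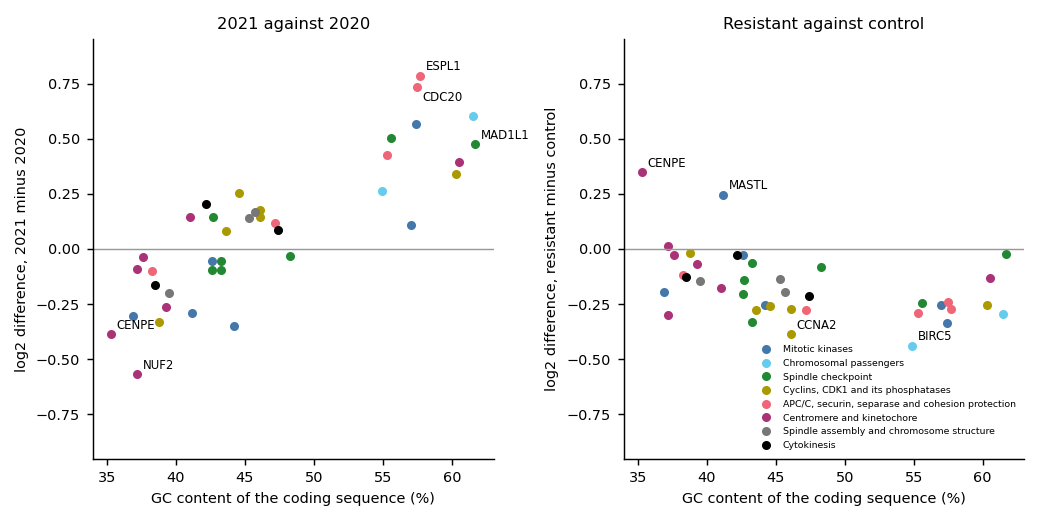
Log2 difference of each of the 39 genes between batches (left, 2021 minus 2020) and between lines (right, resistant minus control) against the GC content of its coding sequence in percent, coloured by role. The left panel rises from NUF2 and CENPE at 37.2% and 35.3% GC to ESPL1 and CDC20 near 57.7%; the right panel has CENPE and MASTL above 0 at low GC content.

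Whether the difference between the lines itself differed between 2020 and 2021 was tested as an interaction of line and batch. None of the 39 genes was called and none had an unadjusted p under 0.05 (edgeR), against 0% and 1.34% of all tested genes, and DESeq2 and limma voom also called 0 of the 39. With one library per line in 2020 and 2 residual degrees of freedom this test resolves only large interactions. The fitted interaction was -0.48 ± 0.29 SE for BIRC5 and 0.48 ± 0.60 SE for CENPE.

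Other genes of mitosis and replication were read from the same fit, in 12 lists. Of 197 listed genes 194 were tested (SKA1, CCNA1 and CDK7 were too low), and 16 were called lower and 1 higher, with a median difference of -0.14 and 73.7% below 0. Over all tested genes 5.48% were called lower and 6.23% higher, with a median of -0.004 and 50.6% below 0. Much of the count of called related genes came from chromosomes 6 and X. There 35.8% of all 1107 tested genes were called lower, against 2.87% elsewhere. On these 2 chromosomes 9 of 13 related genes were called lower and 1 higher, and elsewhere 7 of 181 lower and 0 higher. Of the 39 genes only TTK lies on either, on chromosome 6 at 80004649 to 80042527. The count of 17 was 11 without control replicate 1 or resistant replicate 1, 32 without control replicate 3, 6 without resistant replicate 2 and 5 without resistant replicate 3.

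Of 8 other spindle checkpoint genes 1 was called, against 11.7% of all tested genes. It was MAD2L1BP, also named p31comet, which removes MAD2 from checkpoint complexes and lies on chromosome 6 (43629540). It fell 1.87-fold, from 33.1 ± 3.00 to 17.7 ± 1.23 CPM (SD, n = 3 per line; adjusted p = 0.0026). Among 7 cohesin genes SMC1A, a core ring subunit on chromosome X, fell 1.93-fold from 567 ± 67.7 to 294 ± 23.4 CPM (adjusted p = 0.00332). Among 27 tested kinetochore and centromere genes 4 fell, against 5.48% of all tested genes called lower. All 4 were of the inner centromere network. They were CENPI on chromosome X (1.33-fold), CENPQ and CENPW on chromosome 6 (1.51-fold and 1.37-fold) and CENPL on chromosome 1 (1.42-fold). CENPQ, CENPW and CENPL each lost the call where control replicate 1 or a resistant replicate was left out (adjusted p up to 0.142, 0.126 and 0.143), and CENPI where control replicate 1 or resistant replicate 1 or 2 was (up to 0.151). SPC24, the partner of SPC25, was at 54.8 ± 11.6 TPM in control libraries, against 1.12 TPM for SPC25.

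ANAPC15, an APC/C subunit, fell 1.56-fold, the only call among 18 APC/C genes, and lost it without resistant replicate 2 (0.0753) or 3 (0.101). Over all tested genes 11.7% were called, 5.48% lower. Of 16 other cytokinesis genes VPS4A and CHMP2A, of the ESCRT machinery that cuts the midbody, each fell 1.43-fold, and both lost the call without resistant replicate 2 or 3 (adjusted p up to 0.109 and 0.139). The one rise was in CCNB3, cyclin B3 on chromosome X, from 1.92 ± 0.262 to 4.27 ± 0.745 CPM (2.21-fold, adjusted p = 0.00631), which ended without resistant replicate 3 (0.0523). Condensin (8 genes), spindle pole and assembly genes (22) and other passenger and cohesion-protection genes (10) held no call by edgeR. These lists had 1, 4 and 1 genes at an unadjusted p under 0.05 (edgeR), against 26.4% of all tested genes. Their most abundant members, SMC4, CKAP5 and PDS5A, differed by 0.09, -0.26 and 0.004.

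Among 18 regulators of G2 and M transcription 1 was called, against 11.7% of all tested genes. FOXM1, the forkhead factor of the G2 and M programme, was at 172 ± 53.5 and 137 ± 40.4 CPM (-0.32, adjusted p = 0.146, and 0.0409 with crossed replicate numbers as a block). MYBL2 (B-MYB), which joins the MuvB complex, was at 404 ± 115 and 392 ± 63.0 CPM (-0.03). RB1, a gene known to be lost in this cell line, was at 1.69 ± 0.241 and 1.79 ± 0.529 CPM. NFYA, a subunit of the CCAAT-binding factor on chromosome 6, was that call, at 1.32-fold lower (adjusted p = 0.0433). The adjusted p of NFYA was 0.0633 with the replicate block, 0.225 without control replicate 1, and 0.236, 0.166 and 0.104 without resistant replicates 1, 2 and 3. MKI67, the proliferation marker Ki-67, was at 1297 ± 432 and 1135 ± 533 CPM (-0.22, adjusted p = 0.56), and UBE2T was the one call among 18 further proliferation genes, at 1.36-fold lower (adjusted p = 0.0109). Leaving out control replicate 1 or a resistant replicate gave UBE2T an adjusted p of 0.0593 to 0.0664.

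Genes of S-phase replication had 5 of 25 members called lower, against 5.48% of all tested genes, with a median of -0.23. Of the 5, 3 lie on chromosomes 6 and X, where 35.8% of all tested genes were called lower. POLA1, the catalytic subunit of DNA polymerase alpha on chromosome X, fell 2.06-fold from 210 ± 15.6 to 102 ± 7.56 CPM (adjusted p = 0.00119), and MCM3, a subunit of the replicative helicase on chromosome 6, fell 1.88-fold from 325 ± 30.5 to 173 ± 10.2 CPM (adjusted p = 0.0022). The other 3 were GMNN (geminin, the licensing inhibitor, on chromosome 6; 1.59-fold lower, adjusted p = 0.00836), GINS2 (of the replicative helicase; 1.32-fold, 0.0434) and E2F1 (an S-phase transcription factor; 1.34-fold, 0.0157). Among the fits with a library left out or the replicate block, GMNN lost the call without resistant replicate 3 (0.0511), GINS2 with the replicate block (0.0664) or when replicate 2 or 3 of either line was left out (up to 0.198), and E2F1 without control replicate 1 or a resistant replicate (up to 0.0969).

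**Figure D5:**
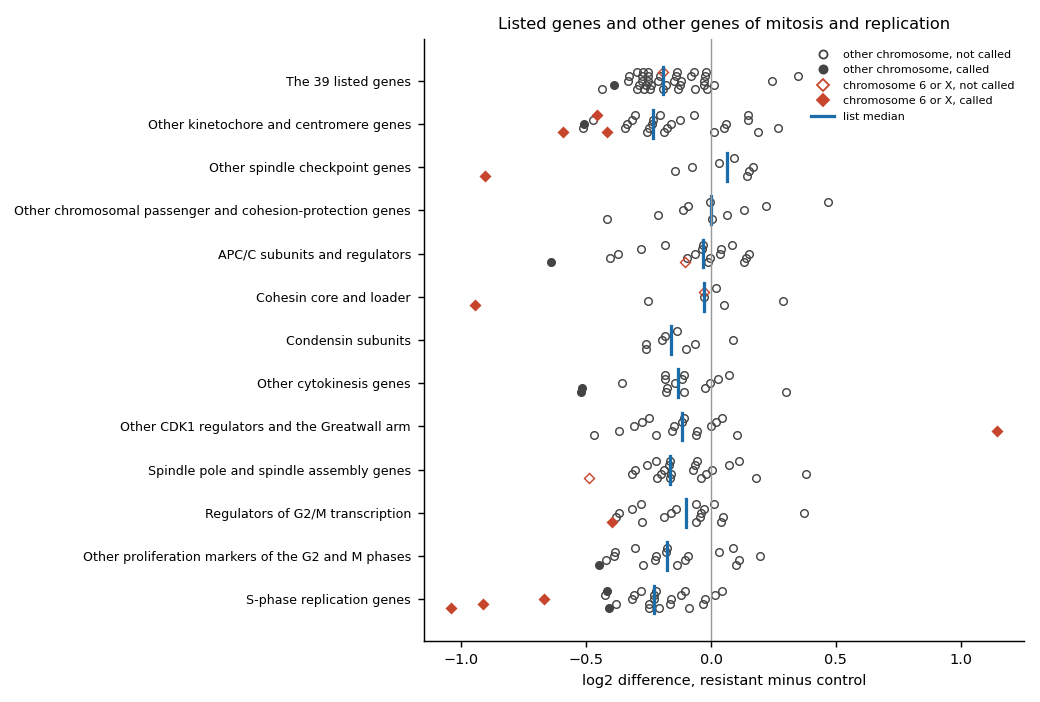
Log2 difference of resistant minus control for the 39 listed genes (top row) and the tested genes of 12 related lists; filled symbols are called at an adjusted p under 0.05, red diamonds lie on chromosome 6 or X, and blue bars are list medians. The lowest values, POLA1, SMC1A, MCM3 and MAD2L1BP, are all red diamonds, and the 39 genes have a median of -0.19.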

How the data were processed

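The authors deposited raw counts per Entrez gene ID, whole numbers with 1 column per library. Trimmomatic 0.38, STAR 2.7.8a, featureCounts of Subread and the build GRCh38 are named per the submitters' processing notes. Annotation release and strand setting: not given in the sources used here. Where 2 genes overlap, as for 18 of the 39, reads of one may be counted for the other. Nothing in the labels tells separate cultures from repeat libraries, and p-values cover the spread among libraries, which may be technical. Library pairs of 1 line gave a chi-square over its degrees of freedom of 70.0 to 215.3, above counting noise. Pairs within 2021 gave 94.88 in the control and 70.0 in the resistant line, and the other pairs also span the batch labels.

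Counts were filtered with filterByExpr, scaled by TMM and tested with edgeR 4.0.16 (R 4.3.3; quasi-likelihood, robust, batch and line as terms, Benjamini-Hochberg over 13950 genes); standard errors derive from the F statistic, intervals are 95%, and log2 differences within a batch use a prior count of 2. Alternatives used DESeq2 1.42.0 and limma 3.58.1. The test was checked on simulated counts that held no batch difference, unlike these data. Deviations from the line's mean correlated at 0.729, 0.143 and 0.155 between libraries with the same replicate number, the first pair being the 2020 batch. Control replicate 2 with resistant replicate 3 gave 0.57, and control replicate 3 with resistant replicate 2 gave 0.477. Pairs of replicate 1 with another number gave -0.62 to -0.425. The replicate number was also fitted as a block, although for replicates 2 and 3 the crossed pairs correlated more closely than the same-number pairs. Coding length and GC content are those of the longest coding transcript in GENCODE 29. Names and positions came from RefSeq (GRCh38.p14), which matched 27745 IDs. The members and lists were chosen with earlier results of these data known. All 39 genes are named, and from each related list up to 2 risen and 2 fallen genes (mean 1 CPM or more), or the most abundant one where none was called, with MKI67, FOXM1, MYBL2 and RB1 whatever their values. CENPI, CENPL, SPC24, GMNN, GINS2 and E2F1 were named after their values were seen.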

Additional observations from a re-analysis of the deposited data

How the results depend on the processing

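Of the 39 genes, 31 to 37 lay below 0 in all 18 alternatives, and their median ran from -0.244 to -0.1. The alternatives are not all separate checks. For the difference between the lines, the fits without replicate 1 of either line rest on the 2021 libraries, as does the 2021 batch alone. The number called lower was 0 with upper quartile scaling, a mean of at least 1 CPM, the replicate block, limma voom, the 2021 batch alone, no batch term and edgeR without robust estimation, 2 with crossed replicate numbers (CCNA2 and MAD2L1) or GC offsets, 3 with no filter or DESeq2, and 0 to 2 when one library was left out. The replicate block ended the calls of CCNA2 (adjusted p = 0.077), NFYA (0.0633) and GINS2 (0.0664) and of no other named gene. With crossed replicate numbers as a block, none of these calls ended. Within 2021 the difference of replicates 2 and 3 correlated at -0.361 between the lines, and a block with crossed numbers, GC offsets and edgeR without robust estimation were added after the data were seen. Over all genes 362 were called with no batch term, 1012 in 2021 alone and 617 to 1985 without one library, against 1633. Of the related genes 32 were called with no filter, 31 with DESeq2, 30 with crossed numbers, 4 with no batch term, 11 in 2021 alone and 5 to 32 without one library. Between batches, 11 of the 39 were called with DESeq2, 2 with GC offsets and 0 to 10 without one library. The causes were not tested. With no batch term every call between the lines named in the report ended except those of MAD2L1BP, SMC1A, MCM3 and POLA1. Calls that ended there include GMNN (adjusted p = 0.114), GINS2 (0.297) and E2F1 (0.362), and GINS2 also lost it with upper quartile scaling (0.0603) and a mean of at least 1 CPM (0.0512).

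SPC25, at 18 to 48 counts, changed sign without control replicate 2, and the other sign changes were in genes with a difference between -0.03 and 0.09. Upper quartile scaling, which moved the median of all genes from -0.004 to 0.034, gave CDK1 0.02, MAD1L1 0.019, KNL1 0.01, ANLN 0.014, BORA 0.009 and MYBL2 0.013. A mean of at least 1 CPM gave CDK1 0.006 and MAD1L1 0.003. No filter gave PDS5A -0.003 and limma voom -0.001. No batch term gave NUF2 -0.017. The 2021 batch alone gave CDK1 0.057, MAD1L1 0.004, KNL1 0.108, BORA 0.018 and RB1 -0.069. GC offsets gave MAD1L1 0.036, NUF2 -0.053, PDS5A -0.024, MYBL2 0.038 and RB1 -0.011. Leaving out one library gave ANLN -0.132 to 0.074, BORA -0.122 to 0.035, CDK1 -0.116 to 0.057, KNL1 -0.22 to 0.108, MAD1L1 -0.16 to 0.109, MYBL2 -0.152 to 0.144, NUF2 -0.191 to 0.186, PDS5A -0.067 to 0.05, RB1 -0.08 to 0.093, SMC4 -0.04 to 0.19 and SPC25 -0.68 to 0.035.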
